A study of Mus musculus with 2 samples.

Results

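The MIRNASS-token probes were 2945 oligonucleotides of 1 spot each among the 14400 small-RNA probes of a 2-colour Agilent array. They were taken as every non-control spot whose probe name reads ASMM10SM20MIRNASS followed directly by a digit. The series held 2 arrays, both hybridised with RNA of BV-2, an immortalised line of mouse microglia. The first was of cells after oxygen and glucose deprivation and reperfusion (OGD/R), in which the medium lacked glucose and serum and the gas was 95% N2 with 5% CO2 for 2 h at 37 °C, after which regular medium and normal oxygen were restored for a time that the sources used here do not give. The other was of BV-2 cells without deprivation (control), grown in 5% CO2 at 37 °C. On both arrays Cy5 marked the modified RNA brought down with magnetic beads (IP), and Cy3 marked the unmodified RNA of the supernatant (Sup). The modification is not named in the sources used here, and no dye swap was among the 2 arrays.

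With 1 array per group, every difference below has no replicate check and no p-value, and precision is limited by the number of arrays. A difference is OGD/R minus control on the log2 scale, and at least 2-fold means a log2 difference of 1 or more in size. Of 13 microglia markers listed for a check of the cells, 1 had a probe, Apoe, which was well above background in both channels of both arrays. Probes existed for 1 of 7 astrocyte and oligodendrocyte markers, Mbp, and for 0 of 5 neuron markers. Mbp was well above background in IP, with 379.9 in OGD/R and 473.9 in control, and not in Sup, with 24.2 in OGD/R and 56.7 in control. Its part in the results was not tested, and the cell type could not be checked further.

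MicroRNAs are short RNAs cut from hairpin precursors that pair with messenger RNAs and lower their translation or stability. In microglia several of them act on inflammatory signalling. The sources used here pair no MIRNASS identifier with an RNA, a sequence or a gene, and do not explain the token, so the probes are given by identifier and no sequence is printed.

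The identifier numbers came in short runs. The 2945 numbers, between 100000010 and 100009733, formed 984 runs of consecutive numbers, of which 978 held 3 probes, 5 held 2 and 1 held 1. Probes of consecutive number were not neighbours on the slide. Their spots lay a median of 67.1 spots apart (quartiles 41.2 and 100) on a grid of 192 rows and 82 columns, and 1 of 1961 such pairs lay within 3 spots. The sources used here do not say whether the probes of a run carry the same sequence. They are therefore treated as related measurements within an array and not as replicates of a condition.

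One member, ASMM10SM20MIRNASS100006001TV2, was left out because the scanner software marked its spot as an outlier on the OGD/R array. It was bright on both, with a Sup signal of 435286 in OGD/R against 482608 in control and an IP signal of 45519.5 in OGD/R against 45656 in control. The other probes of its run, 100006002 and 100006003, had ratio differences of 0.21 and 0.09. No member spot was saturated (0 in either channel), which left 2944 members.

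In each channel, fewer than 4 in 10 members were detected, meaning well above background by the scanner software's flag. In Sup, 1134 members (38.5%) were well above background in OGD/R and 1105 (37.5%) in control. In IP, 872 (29.6%) were so in OGD/R and 853 (29.0%) in control. The detection limit was higher in IP. Over all RNAs, the lowest signal called well above background was 107 in Sup and 165 in IP in OGD/R, and 113 and 181 in control. Counts detected in Sup and in IP therefore do not compare the amounts of the 2 fractions. The other 11437 small-RNA probes were detected more often, at 55.3% in OGD/R and 55.3% in control for Sup and at 42.6% and 42.9% for IP. Among the token groups, the MIRNA probes stood at 60.2% in OGD/R and 60.7% in control for Sup, and the TRFSS probes at 52.3% and 53.1%. The difference from the other tokens was not tested, because probes of 1 array are not independent samples.

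By pattern of detection, 680 members (23.1%) were measured in both channels on both arrays and 1603 (54.4%) in neither channel on either array. Only Sup was well above background on both arrays for 259 members (8.80%), and only IP for 73 (2.48%), with the higher detection limit in IP. The remaining 329 had other patterns. In the other small-RNA probes the shares were 36.7% for both channels, 38.0% for neither, 10.97% for Sup alone and 1.97% for IP alone. Within these, the PST probes had 16.2%, 65.2%, 1.34% and 8.82% in the same order.

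Detection was shared within runs. Of the 977 runs of 3 with all probes kept, 308 had all 3 probes well above background in Sup in OGD/R and 517 had none, against 304 and 533 in control. In IP, 213 runs had all 3 and 592 had none in OGD/R, against 207 and 602 in control. The remaining runs, with 1 or 2 probes detected, were the minority in each channel and array. The place of a probe in its run made little difference to these shares, since 38.0%, 39.5% and 38.0% of probes in the first, the middle and the last place were detected in Sup in OGD/R, against 37.3%, 37.8% and 37.4% in control. In IP the same shares were 31.2%, 28.9% and 28.7% in OGD/R, against 31.1%, 27.4% and 28.4% in control.

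Some runs were seen in 1 channel only. In 4 runs all 3 probes were well above background in IP and not in Sup on both arrays. One of these was the run 100003678 to 100003680, with IP signals of 581, 1012 and 1033 in OGD/R and 536, 1124 and 846 in control, while its Sup signals stayed between 41.6 and 95.7. The run 100002838 to 100002840 had IP signals of 279, 538 and 566 in OGD/R, against 196, 474 and 528 in control, with Sup signals of at most 51.3. For comparison, negative control spots had median processed signals of 27.5 in Sup and 31.0 in IP in OGD/R, and of 28.8 and 31.7 in control. The opposite pattern, Sup without IP, covered all 3 probes in 30 runs, again with the higher detection limit in IP. In the run 100001354 to 100001356 the Sup signals were 827, 860.4 and 1119 in OGD/R and 820.5, 690.5 and 938 in control, and the IP signals reached at most 64.8 in OGD/R and 141 in control.

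The IP share of a probe is its IP signal divided by the sum of IP and Sup, from dye-normalized processed signals. Over the 680 members measured in both channels on both arrays, the median share was 50.6% in OGD/R and 50.4% in control. Quartiles were 37.2% and 67.8% in OGD/R, against 38.3% and 65.4% in control. Shares ran from 2.66% to 97.5% in OGD/R and from 3.05% to 97.3% in control. Because dye normalization sets the overall balance of the channels on each array, the level of the median carries no meaning of its own. The order of probes within an array does not depend on a shift shared by all. The normalization also held a lowess step, which varies with signal, so the order of bright and dim probes can depend on it. Shares of 80% or more were found for 77 members (11.3%) in OGD/R and 68 (10.0%) in control, against 5.58% and 4.93% of the 4195 other small-RNA probes, a difference that was not tested. The other tokens were not alike. The upper quartile of the share was higher in the PST probes than in the members, at 78.8% in OGD/R and 78.2% in control. It was 57.0% and 56.8% in the TRF probes, 62.6% and 61.2% in MIRNA, and 64.9% and 63.8% in TRFSS. Shares under 20% were found for 45 members (6.62%) on either array, against 7.22% of the other probes in OGD/R and 6.32% in control.

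The highest and lowest shares belonged to whole runs. The run 100009591 to 100009593 had IP signals of 26875, 27581 and 39909.6 in OGD/R, against 30593, 30359 and 42449 in control, and its shares lay between 96.9% and 97.5% in OGD/R and between 97.1% and 97.3% in control. In the run 100006356 to 100006358 shares were 94.7% to 95.6% in OGD/R and 94.1% to 95.0% in control. The run 100002788 to 100002790 followed with 91.6% to 92.9% in OGD/R and 93.2% to 93.7% in control. At the low end the run 100000659 to 100000661 had Sup signals of 11941, 9199 and 11976 in OGD/R and 10093, 8259 and 9840.1 in control, with shares of 2.66% to 3.12% in OGD/R and 3.05% to 4.57% in control. In the run 100002204 to 100002206 the shares were 3.28% to 4.61% in OGD/R and 5.47% to 6.29% in control. The run 100001519 to 100001521 had 6.87% to 9.02% in OGD/R and 7.18% to 8.67% in control. Of these 6 runs, 100002788 and 100002204 had shares that did not overlap between the arrays, both lower in OGD/R. Among all 898 small-RNA runs of 3 measured probes, 8.69% had lower and 13.3% higher IP/Sup ratios without overlap. The ratio differences were -0.30 to -0.11 in 100002788 and -0.75 to -0.45 in 100002204. Errors by the scanner software's model were 0.56 to 0.58 and 0.62 to 0.67.

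Along the numbers, the share was close between probes of 1 run, and less so between probes further apart. The median gap in control share was 3.58 percentage points over 380 pairs of consecutive measured numbers, and 18.2 points over 98 pairs that were 5 numbers apart and so lay in different runs. Across probes, the log2 IP/Sup ratio of a probe correlated with that of the next number at r = 0.86 in OGD/R and 0.88 in control (Pearson, 380 pairs). At a distance of 2 numbers the values were 0.89 and 0.90 (194 pairs). They were -0.27 and -0.29 at 3 numbers (34 pairs, all in different runs), -0.02 and -0.03 at 5 (98 pairs), 0.24 and 0.21 at 10 (108 pairs) and 0.05 and 0.12 at 100 (99 pairs). All pairs share the arrays, their dye normalization and the hybridization, and the correlations are descriptions with no test.

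Between the arrays the ratio profile of the members was much the same. The centred log2 IP/Sup in OGD/R correlated with that in control at Pearson r = 0.96 (Spearman rho = 0.94) across the 680 probes, which are not independent replicates. The ratio difference had a median of 0.08 with quartiles of -0.17 and 0.30, and it was above 0 for 392 members and below 0 for 288. The other small-RNA probes had a median of 0.05 with quartiles of -0.20 and 0.30. A shift of this size also followed from the choice of scale. With each array centred on the median of its own spike-in probes, all member ratio differences lay 0.15 lower (-0.15) and their median was -0.07. Taking instead the median of the spike-in probes' own differences, over the 36 measured in both channels on both arrays, lowered them by 0.20 (-0.20). The spike-in scale was itself unsteady, since the ratio differences of those 36 ran from -0.59 to 2.10.

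Only 12 of the 680 members had a ratio difference of at least 2-fold. In 9 members the ratio was higher in OGD/R (1.32%, against 1.34% of all 4909 RNAs measured in both channels), and in 3 it was lower (0.441%, against 0.917%). These shares are near the background of the arrays or below it. The split between directions differed between settings, with 4 higher and 8 lower after centring on the spike-in medians, 3 and 20 after centring on the spike-in differences, and 7 and 8 after loess. It was 40 and 15 in the authors' deposited table, which covers 858 members under another filter. With normexp there were 0 and 0, and with normexp and loess 0 and 2. Normexp is a background correction, run here on median signals in place of the dye-normalized processed ones, with an offset of 50 added to every signal. With the 680 members split into 4 groups of 170 by mean signal, 5 of the 12 lay in the dimmest group, 6 in the next, 1 in the next brighter and 0 in the brightest.

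The largest ratio difference upward was that of ASMM10SM20MIRNASS100000401TV2. Its IP signal was 202 in OGD/R and 292 in control, and its Sup signal 396 in OGD/R and 1597 in control, so the higher ratio came with a Sup signal that was lower by far more than the IP signal. The log2 ratio difference was 1.501 with a scanner error of 0.45, the error given by the scanner software's model for the spots. Neither of the other probes of its run, 100000399 and 100000400, was well above background in IP on either array, and their Sup signals were 397 and 166 in OGD/R, against 563 and 262 in control. ASMM10SM20MIRNASS100003159TV2 followed with 1.46 (scanner error 0.36). Its IP signal was 537 in OGD/R and 376 in control, and its Sup signal 339.7 in OGD/R and 643 in control. The neighbours in its run, 100003158 and 100003160, differed in the same direction by 0.88 and 0.53.

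ASMM10SM20MIRNASS100004813TV2 had a ratio difference of 1.33 (scanner error 0.36). Its IP signal was alike on the arrays, 1037 in OGD/R and 1132 in control, and its Sup signal was 285 in OGD/R and 773 in control. Here the whole run moved together in Sup, since 100004814 had 90.9 in OGD/R, not well above background, and 259 in control, and 100004815 had 349.8 in OGD/R and 688 in control. The run thus had a lower supernatant signal beside an IP signal that differed by at most 0.14. ASMM10SM20MIRNASS100001799TV2, at 1.15, showed the same arrangement with Sup at 188 in OGD/R and 452 in control. Its neighbours 100001800 and 100001801 differed by 0.50 and 0.40.

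The last 2 of the 6 largest were close behind. ASMM10SM20MIRNASS100002690TV2 differed by 1.14 with a scanner error of 0.62, and its Sup signal of 113 in OGD/R was near 107, the lowest signal called well above background there. The middle probe of its run, 100002689, was not well above background in Sup in control, and its ratio difference was -1.68. The first probe, 100002688, was not well above background in Sup on either array, with 39.4 in OGD/R and 94.1 in control. ASMM10SM20MIRNASS100004855TV2 differed by 1.12, with an IP signal of 2295 in OGD/R and 2318 in control and a Sup signal of 865 in OGD/R and 1873 in control. The others of its run differed by 0.43 and 0.93.

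Downward, the largest ratio difference was that of ASMM10SM20MIRNASS100001416TV2, at -1.51 (scanner error 0.43). Its IP signal was 403 in OGD/R and 699 in control, and its Sup signal 266 in OGD/R and 159.9 in control. The other probes of the run went against it, with 0.50 for 100001414 and 0.25 for 100001415. In the run 100000155 to 100000157 the first and last probes differed by -1.07 and -1.17 and the middle one by 0.56. These runs had the widest spread of the ratio difference among the runs measured in full. Just outside the threshold lay ASMM10SM20MIRNASS100002065TV2 at -0.94, ASMM10SM20MIRNASS100001039TV2 at -0.89 and ASMM10SM20MIRNASS100006133TV2 at 0.99, and just inside lay ASMM10SM20MIRNASS100009027TV2 at 1.01. The 12 probes past 2-fold formed 16 pairs with a run neighbour measured in both channels, of which 12 shared the direction and 2 had both probes past 2-fold, counted from each such probe. With normexp the 6 largest upward ratio differences were between 0.20 and 0.75, and the 3 past 2-fold downward between -0.38 and -0.21.

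Within runs the ratio differences lay closer together than between runs. All 3 probes were measured in 179 runs, and in these the SD of the ratio difference within a run had a median of 0.16 (quartiles 0.09 and 0.30). The SD of the run medians between runs was 0.35. The ratio was higher in OGD/R for all 3 probes of 60 runs and lower for all 3 of 34, and 85 runs were mixed. In 30 runs the 3 ratios in OGD/R all lay above the 3 in control (16.8%, against 13.3% of all 898 small-RNA runs of 3 measured probes), and in 16 runs they all lay below (8.94%, against 8.69%). The all-higher and all-lower shares, 33.5% and 19%, stand against 33.4% and 18.3% of the 898. No run had a median ratio at least 2-fold higher (0 of 179, against 0.445% of the 898), and 1 had one at least 2-fold lower (0.559%, against 0.111%), the mixed run at 100000155, which was also the 1 such run among the 898. Consecutive numbers also correlated in their ratio difference, at r = 0.50 over 380 pairs, against -0.09 for the 98 pairs 5 numbers apart.

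A group of 5 runs had nearly equal values and a lower ratio in OGD/R. They were picked after their values were seen, as the runs with a median ratio difference of -0.75 or lower and an SD within the run under 0.1, so their values are a description. They begin at 100000100, 100000444, 100000484, 100001774 and 100005886 and hold 15 probes. In every one of the 15 the Sup signal was higher in OGD/R, between 80716 and 117807, than in control, between 43523.5 and 67423, and the arrays did not overlap. Their IP signals did overlap, at 41741 to 52833 in OGD/R and 41397 to 55627 in control. The IP share was 31.0% to 34.7% in OGD/R, against 44.1% to 48.7% in control.

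On the log2 scale the 15 probes differed by 0.83 to 1.08 in Sup, by 0.04 to 0.24 in IP, by 0.51 to 0.72 in total signal and by -0.89 to -0.77 in the ratio. The SD of the ratio difference over the 15 was 0.04, below the scanner error of 0.20 to 0.23 given for each of their ratios. They fell short of 2-fold in the ratio, but kept their size under other processing, with -0.85 to -0.70 under normexp, -1.02 to -0.86 under normexp and loess and -1.04 to -0.92 under loess. The spots were spread over the slide, a median of 74.2 spots apart. Among the 4875 small-RNA probes with a measured ratio, 0 besides the 15 fell within all of their ranges in shares and differences. The ranges were set by the 15 themselves. Whether these 5 runs bind 1 RNA or related RNAs is not stated in the sources used.

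The 4 runs with the highest median ratio difference had values of 0.99, 0.93, 0.88 and 0.86. The first 3, at 100006131, 100004853 and 100003158, had Sup signals of 127 to 865 in OGD/R, against 162 to 1873 in control, and their medians were 0.20, 0.16 and 0.22 with normexp. The fourth, 100002973 to 100002975, was bright. Its Sup signals were 127768, 115963 and 116350.0 in OGD/R, against 314302, 276544 and 283003 in control, and its IP signals 86349, 81074 and 82213 in OGD/R, against 119016, 111423 and 110283 in control. Both channels were thus lower in OGD/R and Sup more so, with Sup differences of -1.23 to -1.19 and IP differences of -0.32 to -0.28. The ratio difference was 0.82 to 0.88, and its run median was 0.72 with loess on processed signals, 0.26 with normexp and -0.0076 with normexp and loess. In the last pair of settings the Sup median was -0.89 and -0.77 and the IP median -0.67 and -0.77.

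Single channels gave higher counts of 2-fold differences than the ratio, but over more members, 1025 in Sup and 780 in IP against 680. In the authors' deposited table IP gave fewer than the ratio. Signals were scaled between arrays on their 75th percentile, which lay 0.07 lower (-0.07) in Sup and 0.14 lower (-0.14) in IP in OGD/R before scaling. Of the 1025 members detected in Sup on both arrays, 16 were at least 2-fold higher (1.56%, against 1.55% of all 6986 RNAs so detected) and 21 at least 2-fold lower (2.05%, against 1.7%). With each array scaled on the median of its spike-in probes every Sup difference was 0.44 higher, and the counts were 107 higher and 1 lower. With the median of the 43 spike-in differences as the scale they were 0.31 higher, and the counts were 75 and 4. Of the 780 members detected in IP on both arrays, 12 were higher (1.54%, against 1.32% of 5370 RNAs) and 4 lower (0.513%, against 0.596%). Those counts were 13 and 3 with the spike-in scale and 9 and 6 with the members' own median as the scale. With normexp the counts were 2 and 2 in Sup and 0 and 0 in IP. The median difference of the members was -0.05 in Sup and 0.04 in IP, against -0.000116 and 0.04 in the other small-RNA probes.

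Run by run, the Sup differences of 5 runs had a median at least 2-fold lower, out of 288 runs detected in full (1.74%, against 1.26% of all 1423 small-RNA runs so detected). They were 100001739, 100002973, 100002454, 100004058 and 100005118, with medians of -1.23, -1.22, -1.13, -1.10 and -1.03, and the first 3 were past 2-fold in all 3 probes (1.04%, against 0.773%). In the run 100001739 to 100001741 Sup was 2638, 3452 and 2577 in OGD/R, against 6220.4, 8503 and 6465 in control, and IP 2992, 3442 and 2989 in OGD/R, against 4795, 6325 and 5565 in control. The run 100005118 to 100005120 had Sup signals of 6888, 7123 and 5809 in OGD/R, against 15547, 15190.2 and 12124 in control. In all 5 runs IP was lower as well, by a smaller amount on the 75th-percentile scale. For 100002454 this order turned with normexp, with an IP median of -0.42 beside -0.38 in Sup, and on the spike-in scale, with -0.92 beside -0.69. The Sup medians of the 5 were -1.04, -0.89, -0.38, -0.55 and -0.90 with normexp, in the same order, and each would be 0.44 higher on the spike-in scale.

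Higher Sup medians past 2-fold were found in 4 runs (1.39%, against 0.914%), at 100004938 (1.15), 100001044 (1.08), 100001659 (1.03) and 100007246 (1.01). No run was past 2-fold upward in all 3 probes (0, against 0.492%). Their strongest Sup signals were 407, 573, 1038 and 376 in OGD/R, against 158, 283, 665 and 195 in control, and their medians were 0.18, 0.28, 0.30 and 0.23 with normexp. In IP, of 195 runs detected in full, 1 was past 2-fold upward in all 3 probes (0.513%, against 0.314% of 956 small-RNA runs) and 1 downward (0.513%, against 0.105%, which is this run alone). The downward one was 100004148 to 100004150, with IP signals of 231, 221 and 204 in OGD/R, against 540.5, 522 and 587 in control. Its Sup signals were 157, 129 and 119 in OGD/R and 279, 300.3 and 210.4 in control. With normexp its IP median was -0.20.

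The upward run, 100006196 to 100006198, had the largest IP median difference of the 195 runs, at 1.73. IP was 1491, 1337 and 1589 in OGD/R, against 497, 390.2 and 534 in control, which gave IP differences of 1.72 to 1.92. Sup was 229, 229.8 and 300.05 in OGD/R and well above background there, against 82.5, 65.9 and 61.4 in control, where it was not. The Sup signals were at least 2.49-fold to 3.20-fold higher in OGD/R. Such bounds set the brighter array against the higher of the dim probe's own signal and the lowest signal well above background on that array, after loess and quantile normalization of average intensity, and without a dye swap they are open to dye bias. Formed in the same way on the 75th-percentile scale, the bounds of the run were 2.12-fold to 2.78-fold. Under normexp the IP differences of the run were 0.44 to 0.60 and its Sup median was 0.13, and with loess added the IP differences were 0.54 to 0.71.

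Detection changed on 1 array only for a minority of members. In Sup, 109 members (3.70%, against 3.43% of the other small-RNA probes) were detected in OGD/R alone and 80 (2.72%, against 3.50%) in control alone. In IP these were 92 (3.12%, against 2.85%) and 73 (2.48%, against 3.16%). A bound of at least 2-fold was reached by 7 and 12 of these in Sup and by 9 and 7 in IP. On the 75th-percentile scale the counts were 6 and 7 in Sup and 9 and 7 in IP. One of the 7 was ASMM10SM20MIRNASS100006436TV2, with Sup at 298 in OGD/R and 116 in control, at least 2.69-fold higher on the 75th-percentile scale. That control signal lay above 113, the lowest signal called well above background there. The others of its run, 100006437 and 100006438, were detected in Sup on both arrays and fell short of 2-fold. Their Sup differences were 0.62 and 0.85. In IP, ASMM10SM20MIRNASS100001561TV2 had 147 in OGD/R and 457 in control, at least 2.49-fold lower. Its run did not move with it. The first probe, 100001559, was detected in IP on both arrays, at 328 in OGD/R and 373 in control, an IP difference of -0.04. The middle probe, 100001560, was not well above background in IP on either array. All 3 probes changed together in 8 cases, 3 runs in Sup in OGD/R alone, 3 in Sup in control alone and 1 run each way in IP. These were 0.307%, 0.307%, 0.102% and 0.102% of the 977 runs. Bounds stayed under 2-fold in 3 of the 8, at 0.97-fold to 1.59-fold for 100001934, 1.00-fold to 1.45-fold for 100003638 and 1.26-fold to 1.57-fold for 100007426. Matching shares over all small-RNA runs, and counts of 2-fold bounds in the other small-RNA probes, were not computed.

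Among members detected in Sup in control alone, the largest bounds were those of the run 100001294 to 100001296. Sup was 51.1, 106 and 46.8 in OGD/R, none well above background, against 484, 669.8 and 544 in control. These signals were at least 5.25-fold to 5.98-fold lower in OGD/R, or 4.34-fold to 5.997-fold on the 75th-percentile scale. IP was 32.0, 495 and 31.7 in OGD/R, against 311, 747 and 282 in control, so the middle probe alone remained detected in IP. The run 100009126 to 100009128 had Sup at 30.7, 40.8 and 68.2 in OGD/R and 242, 227 and 220.04 in control, at least 2.33-fold to 2.62-fold lower, or 1.97-fold to 2.17-fold on the 75th-percentile scale. Of the IP signals of that run, 1 was well above background, at 218 in control against 31.5 in OGD/R. With normexp the median Sup differences of the 2 runs were -0.46 and -0.14.

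In IP, the run 100006696 to 100006698 had 407, 417 and 372 in OGD/R, against 77.9, 65.9 and 54.8 in control, at least 2.24-fold to 2.60-fold higher. Its Sup signals were at most 40.7 on either array, none of them well above background. A similar pattern was seen for 100007837 and 100007838, with IP at 430.5 and 330.2 in OGD/R, against 75.2 and 32.8 in control, and the first probe of their run, 100007836, had 640.1 in OGD/R and 236 in control. The opposite held for the run 100004723 to 100004725, with IP signals of 150.0, 89.9 and 166 in OGD/R, not well above background, against 435, 479 and 566 in control. They were at least 2.42-fold to 3.15-fold lower, or 2.39-fold to 3.09-fold on the 75th-percentile scale. Its Sup signals were 615, 498 and 589 in OGD/R and 1063, 1062 and 1132 in control. With normexp the median IP differences were 0.19 for the run at 100006696, 0.23 for that at 100007836 and -0.18 for that at 100004723.

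Total signal, the sum of both channels, was used as a stand-in for the amount of RNA bound. Its median difference was -0.05 in the 680 members and -0.02 in the other small-RNA probes. No member was at least 2-fold higher (0 of 680, against 0.733% of all 4909 RNAs) and 8 were at least 2-fold lower (1.18%, against 0.774%). With the members' own median as the scale the counts were 3 and 5, with each array scaled on its spike-in median 0 and 11, and with the median spike-in difference, which raised every total difference by 0.23, 14 and 1. The direction of a small total difference therefore hangs on the scale. These 8 probes lay in 5 runs and formed 14 pairs with a measured run neighbour, which was lower too in all 14 and past 2-fold in 6. Pairs were counted from each such probe, so a pair with both probes past 2-fold counts from either end. The run neighbours of ASMM10SM20MIRNASS100000401TV2 were not measured in both channels. ASMM10SM20MIRNASS100000401TV2 had the lowest difference, -1.57, followed by ASMM10SM20MIRNASS100004150TV2 at -1.22 and ASMM10SM20MIRNASS100005304TV2 at -1.15, whose run neighbours differed by -0.18 and -0.30. Of the 179 runs, 3 had a median at least 2-fold lower (1.68%, against 0.445% of the 898) and 0 one at least 2-fold higher (against 0.668%). The run medians at the low end were -1.14 for 100004148, -1.02 for 100001739 and -1.02 for 100002454. With normexp they were -0.14, -0.79 and -0.38, so that the dimmest of the 3 moved most.

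At the upper end the run 100006356 to 100006358, already described for its high share, led with a median of 0.91. Its IP signals were 10927, 9142 and 10291 in OGD/R, against 6361, 5133 and 5622 in control, and its Sup signals 551, 513 and 469 in OGD/R, against 377, 324 and 298 in control. In the run 100005228 to 100005230 IP was 10780.4, 8320.2 and 9816 in OGD/R and 6545, 4989 and 6250.4 in control, with a total difference of 0.73 to 0.83. The run 100002549 to 100002551 had total differences of 0.75 to 0.84 and the run 100002329 to 100002331 had 0.73 to 0.82. The first 3 had shares over 80% on both arrays, and the fourth had 27.8% to 31.9% in OGD/R and 32.9% to 39.3% in control. With normexp the 4 medians were 0.65, 0.55, 0.65 and 0.44 in this order. The single probe with the highest total difference was ASMM10SM20MIRNASS100006377TV2 at 0.95, with Sup at 3958 in OGD/R and 1853 in control.

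Of the differences between arrays, that in total signal was the most even along a run. Consecutive numbers correlated at r = 0.86 in the total difference, 0.82 in Sup and 0.69 in IP (380 pairs), and the SD of the total difference within a run had a median of 0.09. In 83 runs all 3 probes had a lower total in OGD/R (46.4%, against 37.6% of the 898), in 38 all 3 had a higher one (21.2%, against 27.1%), and 58 were mixed. The 898 include these runs and differ by token. All lower and all higher were 107 and 42 of 232 TRFSS runs, 49 and 31 of 132 MIRNA runs, and 99 and 132 of 355 TRF runs. Such counts of sign depend on the scale, and the median spike-in difference raised every total difference by 0.23. Across the 680 probes the Sup and IP differences correlated at r = 0.54, on arrays and hybridizations that they share. Whether the differences moved with position on the slide was not tested. Over 16 equal regions of the slide with 34 to 52 measured members each, the regional median ranged from -0.11 to 0.18 in the ratio difference and from -0.13 to 0.05 in the total difference. After subtraction of these medians the correlation of consecutive numbers was 0.49 in the ratio difference and 0.86 in the total difference.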

How the data were processed

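Per the file headers, Agilent Feature Extraction gave 1 intensity per spot and dye and subtracted background, removed spatial trend and normalized the dyes (linear and lowess) on each array before the authors deposited the files. Spots flagged as outliers were left out. Log2 ratios were centred on the median RNA, spike-ins left out, among those with a detected channel on each array. Signals were scaled on their 75th percentile. Scanner errors were converted from the log10 ratio errors that the deposited files give. The authors also deposited log2 values for 5702 probes, which equal log2 processed signals minus 1 constant per column, and whose differences were centred on their medians here. Column medians were -4.39 and -4.74 for IP and -2.18 and -2.48 for Sup, in OGD/R and control. Total signal was not computed from that table because its constants differ between channels.

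Normexp (offset 50, on median signals) and loess were run with limma 3.58.1 in R 4.3.3, the rest with Python 3.11.15. The processing was tested on simulated data. The members, lists and alternatives were chosen with earlier results of these data known. The rule for named probes took the 6 largest ratio differences and 5 largest total differences each way, the 5 highest and lowest shares, the 3 largest bounds and the 4 most extreme runs. It asked for runs of at least 5 measured probes, but no run held more than 3, so runs with all 3 measured were used. Runs named for total or single-channel signal, for detection or for alike values were chosen after their values were seen.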

Additional observations from a re-analysis of the deposited data

How the results depend on the processing

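Most counts of 2-fold differences depended on the processing. Counts are given as higher, then lower in OGD/R. The ratio gave 9 and 3, but 0 and 0 under normexp, 0 higher with loess added, 8 lower after loess, 51 and 49 at 1.5-fold, 0 and 0 at 3-fold, 40 and 15 in the authors' deposited table, 4 and 8 on the spike-in medians, 3 and 20 on the spike-in differences, 55 and 73 with at least 1 channel detected, 251 and 253 with no filter, and 0 and 1 over run medians. Sup gave 16 and 21, but 2 and 2 under normexp, 3 and 1 with loess added, 100 and 84 at 1.5-fold, 1 and 1 at 3-fold, 28 higher in the authors' table, 107 and 1 on the spike-in medians, 75 and 4 on the spike-in differences, 147 and 121 with no filter, and 4 and 5 over run medians. IP gave 12 and 4, but 0 and 0 with normexp, with or without loess, 85 and 33 at 1.5-fold, 4 and 0 at 3-fold, 33 and 15 in the authors' table, 215 and 164 with no filter, and 1 and 1 over run medians. Total signal gave 0 and 8, but 0 lower with normexp, with or without loess, 44 and 49 at 1.5-fold, 0 lower at 3-fold, 3 and 5 on the members' own median, 14 and 1 on the spike-in differences, 16 higher with at least 1 channel detected, 100 and 60 with no filter, and 3 lower over run medians. Run medians and spike-in differences were added after the data were seen, as were the bounds on the 75th-percentile scale.

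The scanner's looser positive-and-significant flags gave 2141 members in Sup and 1645 in IP in OGD/R, 2108 and 1733 in control, and 1296 in both channels on both arrays. The median IP share was 47.8% in OGD/R and 46.9% in control with normexp, and 44.9% and 46.0% with at least 1 channel detected. The correlation of consecutive numbers was 0.77 under normexp and 0.79 with loess added for the ratio difference, and 0.93 in both cases for the total difference. The ratio difference of the run 100002973 changed sign, to -0.0076 with normexp and loess. Other run medians near 0 crossed it too, such as that of 100002454, which was 0.23, and -0.03 with normexp, and that of 100005228, which was 0.04, and -0.11 on the spike-in medians. Normexp adds 50 to each signal, which by construction shrinks differences of dim probes. It also started from median signals that were not dye-normalized, so bright probes can move as well. The run median of the bright run 100002973 went from 0.86 to 0.26 in the ratio difference, and what moved it was not tested. The SD of the ratio difference over members was 52.1% of its main value with normexp. Keeping outlier spots moved no count by over 1.5 times. No paired analysis was possible because each group had 1 array. Signal near background limits most members, of which 54.4% were detected nowhere.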

Other observations

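The numbers between MIRNASS runs are partly taken by MIRNA-token probes, and the values of such neighbouring runs were not alike. Over 18 MIRNASS runs with a measured MIRNA run 5 numbers before, the medians of the ratio difference correlated at r = -0.19 and those of the total difference at 0.11 across runs. Over 21 with a MIRNA run 5 numbers after, the values were -0.09 and 0.16. These are descriptions across runs on the same arrays.

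The authors' deposited table lists 858 members (29.1%), including all 680 measured in both channels on both arrays and the member left out here as an outlier. Of the 857 others, 816 had a detected channel on each array. The sources used here do not give the filter behind the table.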
